A study of Bos taurus and other sequences with 9 samples.

Results

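Y RNA loci were taken as all loci that the deposited small ncRNA table types as Y_RNA, and they made up 238 of its 1361 loci. The table also held 530 tRNA, 419 snRNA, 163 snoRNA and 11 piRNA loci. All 238 Y RNA loci carried a numbered name of the form Y_RNA.384-201, and 0 carried an RNY name, so that named Y RNA genes could not be compared with numbered copies. The numbered copies therefore held every Y RNA count reported here.

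Y RNAs are short non-coding transcripts of RNA polymerase III that fold into a stem and loop and are bound by the proteins Ro60 and La. They are known for a role in the initiation of DNA replication and in the control of Ro60, and their fragments are commonly found in blood and in extracellular vesicles (EVs). Mammals have a small family of functional Y RNA genes, whereas the human genome also holds many copies of these genes that are regarded as pseudogenes. The numbered names belong to such annotated copies on the human genome.

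Small ncRNA was sequenced from EV isolates of 9 cell-free culture media, with no cells grown in them. FBS-1 and FBS-2 held untreated fetal bovine serum from Sigma-Aldrich (Sigma) and Gibco. UC-dFBS-1, UC-dFBS-2, UF-dFBS-1 and UF-dFBS-2 held the same sera after ultracentrifugation (UC) or ultrafiltration (UF) to deplete EVs. SBI-dFBS-1 and SBI-dFBS-2 held lots of commercial exosome-depleted serum from System Biosciences, and StemPRO was 1 sample of a defined serum-free medium from Gibco. The paper lists all FBS-based samples as the same basal medium with a minor part of serum and antibiotics. Their levels are therefore those of diluted serum. Since each medium was represented by 2 different sera or lots, every SD below includes that difference, and fewer EVs cannot be told apart from less RNA per EV or from RNA outside EVs.

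The serum is bovine, whereas reads were placed on human GRCh37, allowing 1 mismatch. A count at a locus is therefore the number of reads assigned to this human copy, and loci with near-identical sequence could share reads in a way that was not given in the sources used here. Y RNA counts, collapsed by unique molecular index, numbered 2576 (FBS-1) and 3893 (FBS-2) for the untreated sera, 5375 (lot 1) and 950 (lot 2) for SBI-dFBS, 2016 (Sigma) and 2806 (Gibco) for UC-dFBS, and 2240 (Sigma) and 754 (Gibco) for UF-dFBS. StemPRO had 17. Y RNA made up from 0.0159% in SBI-dFBS-2 up to 0.914% in UF-dFBS-2 of all small ncRNA counts of a sample, miRNA included. tRNA took between 68.7% and 99.5% of those counts.

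The 238 loci lay on 21 chromosomes, with 117 on the plus and 121 on the minus strand, and were 82 to 134 bases long (median 109). None overlapped a locus of another class in the table. Chromosome 7, which carries the functional human Y RNA genes, held 7 loci and chromosome 3 held 20. The counts were spread over these loci very unevenly. Of 20610 Y RNA counts in the 8 FBS-based samples, 4 loci had over 1000 counts each, 12 had over 100, and 185 had 10 or fewer. A count was seen in all 8 samples at 18 loci and in exactly 1 of the 8 at 108 loci. Counts identical to those of another Y RNA locus in every sample were found at 114 loci, in 16 sets, and none of these had more than 6 counts over the 9 samples.

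In each sample, very few loci carried the Y RNA counts. The highest locus alone took 23.8% (SBI-dFBS-2) to 42.5% (UF-dFBS-1), and 2 loci, or 3 in SBI-dFBS-2, were enough to hold more counts than all other Y RNA loci together in the FBS-based samples. The 5 highest loci held 75.6% in FBS-1 (Wilson 95% interval 73.9 to 77.2, counting error only) and 82.7% in FBS-2. They held 75.9% and 77.6% in the lots of SBI-dFBS, 81.3% and 82.6% after ultracentrifugation, and 86.25% and 85.4% after ultrafiltration. By the share of the 5 highest loci, the counts were thus most concentrated in UF-dFBS, where both samples lay above all others. This order did not hold for the 8 highest loci, which took 92.1% and 92.4% in UF-dFBS but 93.7% in UC-dFBS-2. The share of the 5 highest loci was 85.8 ± 0.593% in UF-dFBS (SD, n = 2) and 79.3 ± 3.30% in the other 6 FBS-based samples. The difference was 6.54 percentage points (exact two-sided permutation test, p = 0.0714, the smallest p of 2 against 6 samples when the smaller tail is doubled).

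**Figure D1:**
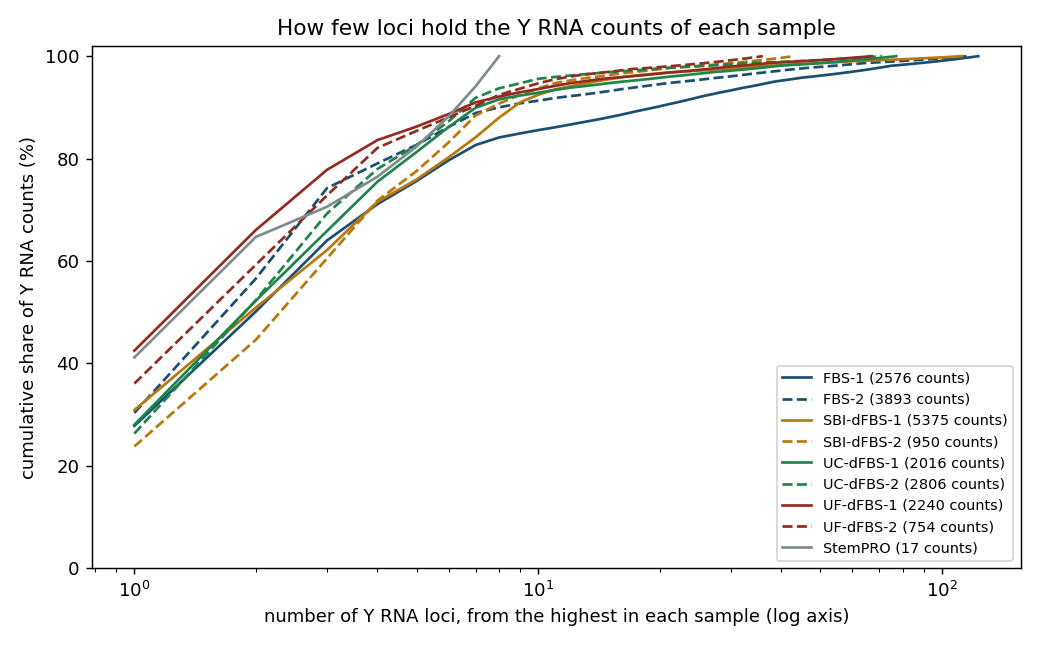
Cumulative share of Y RNA counts (%) against the number of loci, ordered from the highest in each sample (log axis), with 1 line per sample. FBS-1 (solid dark blue) needed 20 loci to reach 90% of its counts, whereas the other 7 FBS-based samples needed 7 to 9, and the line of StemPRO rests on only 17 counts.

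The number of loci that held 90% of Y RNA counts was 20 for FBS-1 but 8 for FBS-2, and it was 9 and 8 for SBI-dFBS, 8 and 7 for UC-dFBS, and 7 for each UF-dFBS sample. FBS-1 therefore had a longer tail of low loci than its counterpart, although FBS-2 had more Y RNA counts. For comparison, 90% of tRNA counts, of which there were far more, were held by 11 to 32 loci in the FBS-based samples.

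By mean spike-in normalized count over the 8 FBS-based samples, the leading locus was Y_RNA.384-201 (chr7:6252269-6252371, minus strand, GRCh37, 103 bases). A spike-in normalized count is the read count divided by the slope of the sample's external spike-ins, so that 1 unit stands for the same amount of spike-in in every sample. Y_RNA.384-201 had spike-in normalized counts of 148 and 158 for FBS, 184 and 59.8 for SBI-dFBS, 86.4 and 108 for UC-dFBS, and 17.2 and 11.3 for UF-dFBS. It was the highest Y RNA locus in each of the 8 samples, and both UF-dFBS samples lay below all others. The second locus, Y_RNA.493-201 (chr19:40848236-40848348, plus strand, 113 bases), had 119 and 137 for FBS, 119 and 52.4 for SBI-dFBS, 74.8 and 107 for UC-dFBS, and 9.56 and 7.29 for UF-dFBS. The third, Y_RNA.696-201 (chr10:112402436-112402543, minus strand, 108 bases), had 73.7 and 92.2 for FBS, 66.8 and 28.3 for SBI-dFBS, 41.9 and 69.5 for UC-dFBS, and 4.76 and 4.25 for UF-dFBS. These first 3 loci together took 55.9% to 77.8% of Y RNA counts in the FBS-based samples, with the lowest share in SBI-dFBS-2 and the highest in UF-dFBS-1.

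The next 5 loci were all shorter, at 93 to 96 bases. Y_RNA.273-201 (chr1:23696747-23696839, plus strand) had spike-in normalized counts of 37.8 and 25.2 for FBS, 56.1 and 39.98 for SBI-dFBS, 29.7 and 35.8 for UC-dFBS, and 2.35 and 2.91 for UF-dFBS. In contrast to the first 3 loci, it was higher in both SBI-dFBS samples than in both FBS samples. Y_RNA.321-201 (chr3:156871337-156871429, plus strand), Y_RNA.44-201 (chr22:41461558-41461650, minus strand), Y_RNA.341-201 (chr9:98865361-98865456, minus strand) and Y_RNA.308-201 (chr2:201237898-201237992, plus strand) ranged from 5.05 to 25.9 in FBS, SBI-dFBS and UC-dFBS and from 0.453 to 1.07 in UF-dFBS. The first 8 loci lay on 8 different chromosomes and together held 84.1% to 93.7% of Y RNA counts in the FBS-based samples.

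Levels fell off steeply after the eighth locus. Y_RNA.523-201 (chr2:9755396-9755502, plus strand) had 14 counts in each FBS sample and Y_RNA.125-201 (chr9:34194810-34194905, minus strand) had 5 and 9. The 230 loci beyond the first 8 together had spike-in normalized counts of 84.4 and 52.2 for FBS, 71.4 and 23.3 for SBI-dFBS, 26.0 and 25.8 for UC-dFBS, and 3.20 and 2.37 for UF-dFBS.

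**Figure D2:**
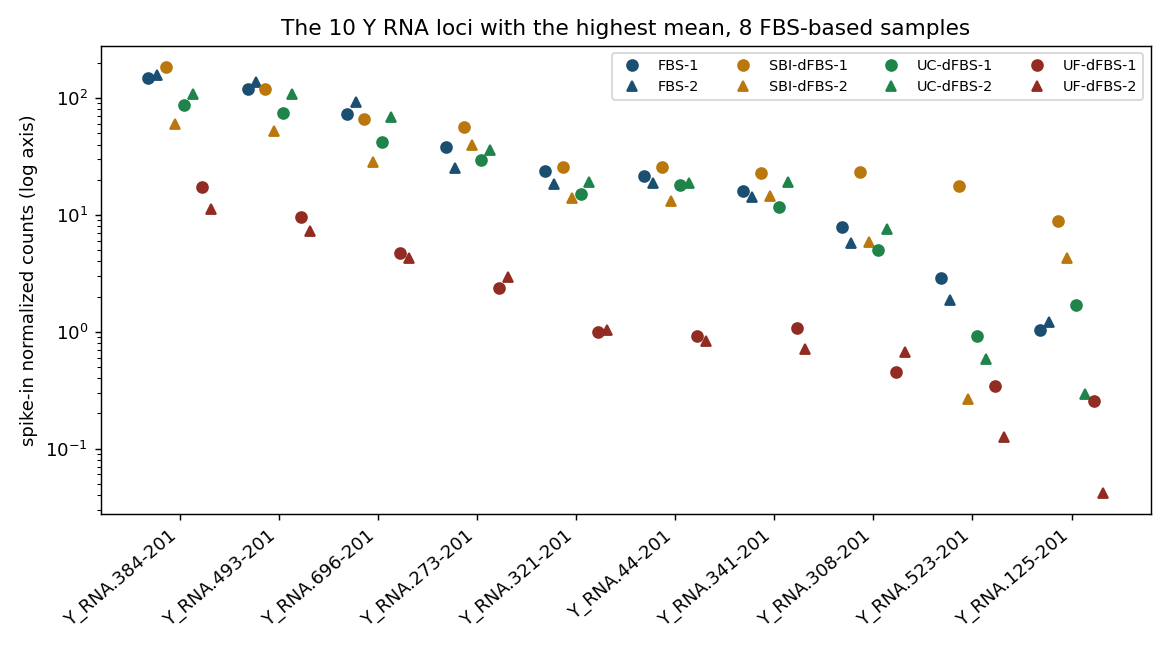
Spike-in normalized counts (log axis) of the 10 Y RNA loci with the highest mean in the 8 FBS-based samples, with 1 point per sample and circles for sample 1 and triangles for sample 2 of each medium. Both UF-dFBS samples (red) lie below the other 6 samples at the first 8 loci on this spike-in scale, an order that is not seen in every other scaling, and Y_RNA.523-201 spans 0.265 to 17.7 between the SBI-dFBS samples.

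Ultrafiltration was compared with the other FBS-based media to see how far it removed Y RNA. The Y RNA total was 527 ± 6.77 spike-in normalized counts for FBS (SD, n = 2; samples 532 and 522), 423 ± 242 for SBI-dFBS (594 and 252), 360 ± 72.8 for UC-dFBS (308 and 411) and 36.0 ± 6.48 for UF-dFBS (40.6 and 31.4). Both UF-dFBS samples lay below all others. UF-dFBS was 11.7-fold below the other 6 samples (log2 difference -3.55, lower in 2 of 2 samples, exact two-sided permutation test, p = 0.0714, the smallest possible when the smaller tail is doubled). As a share of all small ncRNA counts, however, Y RNA was 0.0326% and 0.914% in UF-dFBS against 0.0159% to 0.645% in the other 6 samples, and the mean log2 difference turned to 0.70 (exact p = 0.786). This test pooled both sera, which went opposite ways. Within the Sigma serum the share was lower in UF-dFBS (0.0326%) than in FBS (0.0643%) and UC-dFBS (0.0570%). Within the Gibco serum it was higher (0.914% against 0.645% and 0.308%). The lower level in UF-dFBS thus holds per spike-in in both sera, but per sequenced count only within the Sigma serum.

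The first 8 loci were each lower in UF-dFBS than in FBS of the same serum on the spike-in scale, though not to the same extent and not under every scaling. Within the Sigma serum, UF-dFBS held 0.117 of the FBS level of Y_RNA.384-201 and 0.0416 of that of Y_RNA.321-201, which were the highest and the lowest ratio of the 8 loci. Within the Gibco serum the ratios were 0.0440 for Y_RNA.44-201 and 0.116 for Y_RNA.273-201 at the extremes. As groups, the first 3 loci kept 0.0927 (Sigma) and 0.0590 (Gibco) of the FBS level, the 4th to 8th kept 0.0542 and 0.0748, and the remaining 230 kept 0.0380 and 0.0455. The order of the first and second groups was therefore opposite in the 2 sera, and only the remaining loci were lowest in both. Of the 84.4 (Sigma) and 52.2 (Gibco) units of the remaining loci in FBS, 43.1 and 19.2 came from 72 loci at 0 counts in UF-dFBS. Their low ratio thus rests in part on these 72 loci and does not describe low loci in general.

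Of 20 Y RNA loci with at least 10 counts in at least 2 FBS-based samples, 15 were lower in both UF-dFBS samples than in each of the other 6, beside 37.2% of all 363 small ncRNA loci that passed this filter. The exceptions were Y_RNA.523-201 and the loci Y_RNA.601-201, Y_RNA.312-201, Y_RNA.16-201 and Y_RNA.622-201, which were at 0 counts in UF-dFBS but also in SBI-dFBS. These last 4 had reached 10 counts in FBS alone, so that they could pass the filter only where they were high.

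In edgeR's quasi-likelihood test with the medium as the single term, 0 of 20 Y RNA loci passed an adjusted p of 0.05 in UF-dFBS against FBS, beside 0% of all 363 loci tested. An unadjusted p under 0.05 was seen at 12 of the 20, beside 29.8% of all loci, and 4 of these 12 were the loci that had passed the filter through FBS alone. Against the mean of FBS, SBI-dFBS and UC-dFBS, likewise 0 of 20 passed (0% of all loci), with an unadjusted p under 0.05 at 11, beside 31.1% of all loci. None of the 11 was among these 4 loci, for which edgeR could give no result in this comparison. UF-dFBS and SBI-dFBS were both at 0 counts there, and the SE of the log2 change was 5961 to 8382. Of the other 16 loci, all had negative log2 changes in both comparisons on the spike-in scale, against 10 and 7 with TMM scaling. With the serum as replicate block, which sets each UF-dFBS sample against FBS of the same serum, 18 of 18 Y RNA loci tested were called lower, beside 66.1% of 322 loci. Of these 18, the 14 that had not passed the filter through FBS alone had log2 changes of -2.72 to -4.51 (median -3.77). For Y_RNA.384-201 the change was -3.43 ± 1.45 (SE, adjusted p = 0.0313 by edgeR with the block, against 0.214 without it) and for Y_RNA.44-201 it was -4.51 ± 1.00 (adjusted p = 8.00e-05, against 0.119 without it). In the same blocked fit, 18 of 18 were lower than the mean of FBS and UC-dFBS, beside 62.1% of all loci. DESeq2 with spike-in size factors and no block called 12 of 20 lower against FBS, beside 37.2% of loci, and 16 of 20 against the mean of the other media, beside 51.5%. Of the 16 loci that had not passed through FBS alone, it called 10 and 14.

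Without the 4 loci that had passed the filter through FBS alone, the median log2 change of the other 16 Y RNA loci in UF-dFBS against FBS was -3.66, and that of all 363 loci was -3.63, with 8 of the 16 below the latter. Scaled by TMM, which takes the bulk of loci as constant, the median of all loci moved to -0.57 and that of the 16 to -0.19, with 4 of the 16 below the median of all loci. The sign turned under this scaling at 6 of the 20 loci. Among the 10 leading loci these were Y_RNA.384-201, Y_RNA.273-201 and Y_RNA.308-201, with log2 changes of 0.27, 0.80 and 0.76.

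**Figure D3:**
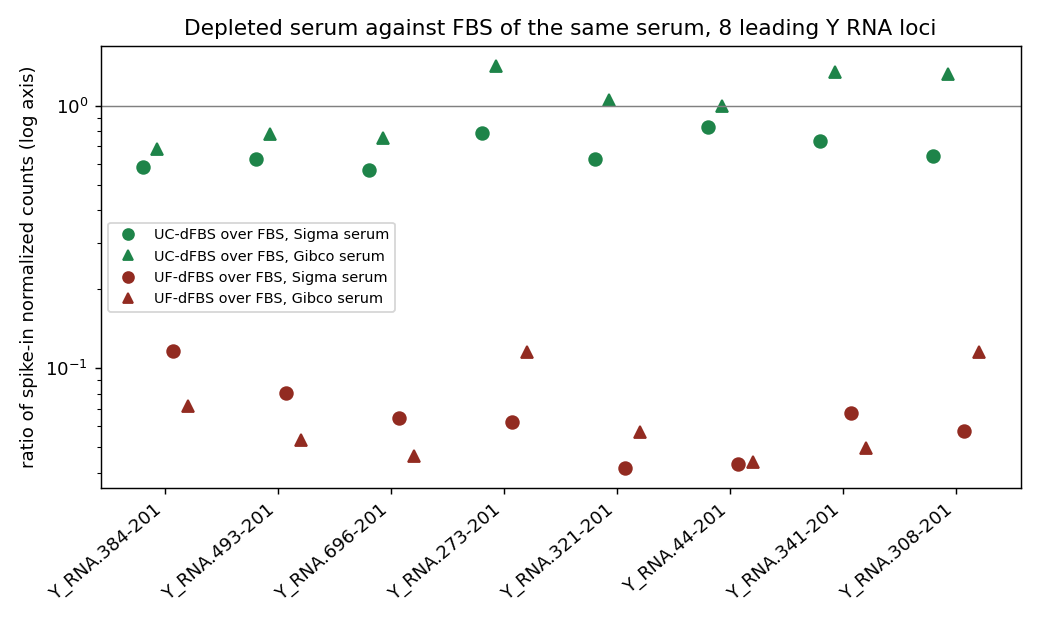
Ratio of spike-in normalized counts (log axis) of UC-dFBS (green) and UF-dFBS (red) to FBS of the same serum at the first 8 Y RNA loci, with circles for Sigma and triangles for Gibco. UC-dFBS lies between 0.569 and 1.42 and UF-dFBS between 0.0416 and 0.117, and under TMM scaling the UF-dFBS change of Y_RNA.384-201, Y_RNA.273-201 and Y_RNA.308-201 has the opposite sign.

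Ultracentrifugation left most of the leading Y RNA in place. The total in UC-dFBS was 0.580 (Sigma) and 0.788 (Gibco) of that in FBS of the same serum. The first 3 loci kept 0.597 and 0.735 of their FBS level, the 4th to 8th kept 0.741 and 1.22, and the remaining 230 loci kept 0.308 and 0.494. The remaining loci thus had the lowest ratio in both sera, as they had after ultrafiltration. No locus passed the edgeR test with the medium as term (0 of 20, beside 0% of 363 loci, and 0 at an unadjusted p under 0.05, nor did any with DESeq2). With the serum as block 1 of 18 was called, beside 2.48% of 322 loci. This was Y_RNA.16-201 (chr14:39456485-39456587), with 20 and 10 counts in FBS and 2 and 0 in UC-dFBS (log2 change -4.22 ± 1.27, edgeR adjusted p = 0.0487), a locus that reached 10 counts only in FBS.

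In the commercial SBI-dFBS, Y RNA loci stood at unequal ratios to FBS. Its lots differed from each other, with 2.36 times more Y RNA in SBI-dFBS-1 than in SBI-dFBS-2. Against the mean of FBS, the first 3 loci stood at 1.01 and 0.386 in the lots, whereas the 4th to 8th stood at 1.62 and 0.926. Of single loci, Y_RNA.384-201 had 0.795 of the FBS mean, Y_RNA.308-201 had 2.14, Y_RNA.523-201 had 3.77 and Y_RNA.125-201 had 5.84. Y_RNA.125-201, whose FBS values rest on few counts, had 8.85 and 4.24 spike-in normalized counts in SBI-dFBS and 1.03 and 1.21 in FBS (edgeR adjusted p = 0.970). Y_RNA.523-201, in contrast, had 160 counts in SBI-dFBS-1 and 1 in SBI-dFBS-2, so that its mean rests on 1 lot. In the edgeR test of SBI-dFBS against FBS, 0 of 20 Y RNA loci passed, beside 0% of 363 loci, and DESeq2 with spike-in size factors called 0. The loci at an unadjusted p under 0.05 numbered 4 (1.1% of all loci), and these were the 4 Y RNA loci that had passed the filter through FBS alone. The median log2 change was 0.20 for the other 16 Y RNA loci and 1.111 for all loci, and 13 of the 16 lay below the median of all loci.

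A group of Y RNA loci had counts in FBS but none in either SBI-dFBS or UF-dFBS sample. There were 72 such loci, and they held 209 counts in FBS-1 (8.11% of its Y RNA) and 143 in FBS-2 (3.67%), 33 and 11 in UC-dFBS, and 0 in StemPRO. Their sum was 43.1 and 19.2 spike-in normalized counts in FBS, which is at least 55.4-fold higher than the 3 counts per sample that a count of 0 allows in SBI-dFBS, and at least 348-fold higher than the same floor in UF-dFBS. FBS was 9.36 times above UC-dFBS. Since the loci were picked for having counts in FBS and being at 0 elsewhere, these values are a description with no test. SBI-dFBS-1, which lacked all of these loci, had the highest Y RNA count of all samples.

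Most of the 72 loci had few counts in FBS too, but 14 of them had at least 10. Y_RNA.601-201 (chr15:69698780-69698891, plus strand) had 14 and 20 counts in FBS and 6 and 2 in UC-dFBS. Y_RNA.312-201 (chr12:49321722-49321816, minus strand) had 17 and 13 counts in FBS and 4 and 0 in UC-dFBS. Y_RNA.479-201 (chr10:38283791-38283903, plus strand) had 12 and 3 in FBS and 0 in both UC-dFBS samples. These 14 loci were 42.4% of the 33 Y RNA loci with at least 10 counts in FBS. Among loci of the other classes with at least 10 counts in FBS, 0 of 288 tRNA, 0 of 45 snRNA and 0 of 4 snoRNA loci were at 0 in all 4 samples of SBI-dFBS and UF-dFBS. Many tRNA loci were far more abundant, but within the range of FBS counts spanned by these 14 loci, from 10 to 34, the number at 0 was 14 of 24 for Y RNA, 0 of 70 for tRNA, 0 of 9 for snRNA and 0 of 1 for snoRNA. The pattern was noted after the values had been seen, so that these numbers carry no test.

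**Figure D4:**
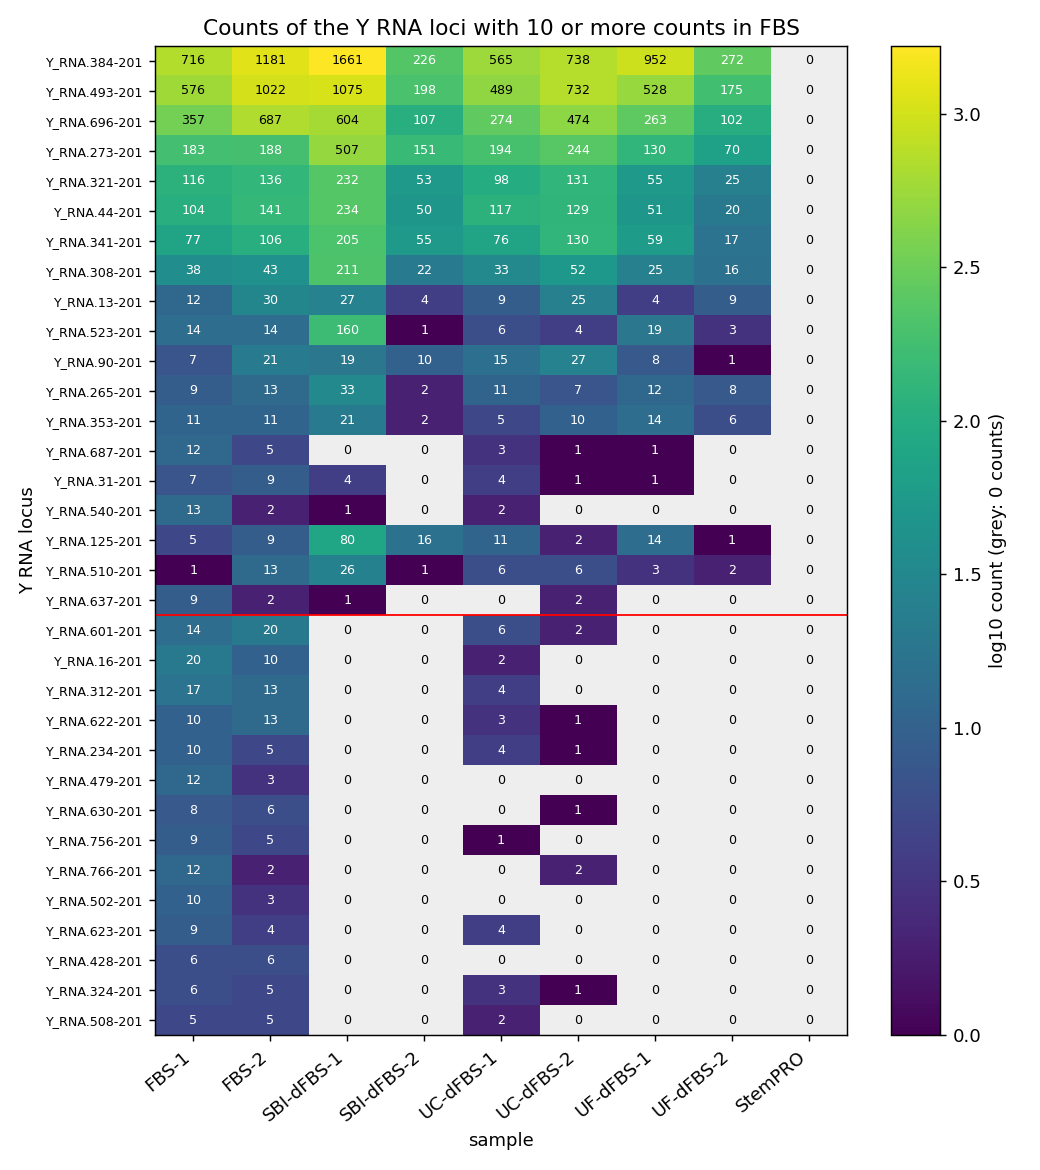
Read counts of the 33 Y RNA loci with at least 10 counts in FBS (1 locus per line, ordered by FBS counts within each block) in the 9 samples, with the colour giving log10 of the count and grey marking 0. Below the red line stand the 14 loci at 0 in both SBI-dFBS and both UF-dFBS samples, whereas the 13 loci at the top have counts in all 8 FBS-based samples.

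When no filter on low counts was set, edgeR called 26 of 237 Y RNA loci lower in UF-dFBS against FBS, beside 3.7% of 1271 loci. These 26 included all 14 loci described above, with at least 10 counts in FBS and 0 in SBI-dFBS and UF-dFBS. Those loci were picked on the same values, so that their calls are no separate support. Of the first 8 loci, 0 were among the 26. The fit with the serum as block, in contrast, called all of the first 8.

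A spike-in normalized count over 1, in either sample of the medium, was reached by 40 Y RNA loci for FBS, 18 for SBI-dFBS, 14 for UC-dFBS and 6 for UF-dFBS, and by 0 for StemPRO. All loci of UC-dFBS and UF-dFBS above this level were also among those of FBS, and 24 loci were above it in FBS alone. The share of all small ncRNA loci above this level is not given here, so that these numbers describe Y RNA loci only. The number for FBS rests largely on FBS-1, since FBS-2 alone had 21 such loci. Above it in SBI-dFBS alone were 3 loci. Y_RNA.725-201 (chr9:72926523-72926617) had 57 and 12 counts in SBI-dFBS and 2 and 5 in FBS, and Y_RNA.257-201 (chr11:3685045-3685141) had 15 and 5 against 1 and 6. Y_RNA.539-201 (chr4:141621989-141622096) had 11 and 0 counts in SBI-dFBS and 0 in both FBS samples, so that it rests on 1 lot. The counts of loci depend on the threshold, and with any count above 0 the numbers were 160 for FBS, 121 for SBI-dFBS, 105 for UC-dFBS, 76 for UF-dFBS and 8 for StemPRO.

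The 2 sera were compared over FBS, UC-dFBS and UF-dFBS, with 3 samples each. On the spike-in scale the Y RNA totals of both sera lay within 1.33-fold of each other in every medium, whereas tRNA was far lower in the Gibco serum. The Y RNA total in Gibco was 0.982 (FBS), 1.33 (UC-dFBS) and 0.774 (UF-dFBS) of that in Sigma, and the corresponding ratios of tRNA were 0.0809, 0.243 and 0.0271. The mean log2 difference of Y RNA was 0.01 (exact two-sided permutation test, p = 1), in a design whose smallest p is 0.1. The log2 ratio of Y RNA to tRNA counts within a sample, which does not depend on spike-ins, was higher in Gibco by 3.63 (12.4-fold, in the Gibco sample of each of the 3 media, exact p = 0.1, adjusted over 4 classes 0.133). Y RNA was also higher relative to snRNA (5.46-fold) and to snoRNA (2.16-fold) in all 3 media (exact p = 0.1 for each, adjusted 0.133). The mean for snRNA was drawn up by UF-dFBS (23.8-fold), against 2.60-fold in FBS and 2.63-fold in UC-dFBS. For tRNA the values were 12.1-fold (FBS), 5.50-fold (UC-dFBS) and 28.6-fold (UF-dFBS). Relative to miRNA, Y RNA was likewise higher in all 3 media, by 2.48-fold (FBS), 2.69-fold (UC-dFBS) and 1.51-fold (UF-dFBS), with a mean of 2.16-fold (exact p = 0.6). These permutation tests did not pair the sera by medium, so that their p-values include the spread between media. For the log2 ratio to miRNA the SD over the 3 media was 2.37 in Gibco and 2.77 in Sigma.

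Locus by locus, edgeR with the medium and the serum as terms called 0 of 13 Y RNA loci (0 at an unadjusted p under 0.05), beside 62.1% of 280 loci, all of them lower in Gibco. The called loci included 163 of 232 tRNA and 10 of 32 snRNA loci. The log2 change of Y_RNA.384-201 was -0.06 ± 1.10 (SE, edgeR adjusted p = 0.968), and the median of the 13 Y RNA loci was 0.01 against -3.13 for all loci. With TMM the median of all loci moved to 0.29, and 12 of 13 Y RNA loci were called higher in Gibco, beside 21.4% of loci called higher. In that scaling 60 loci were higher and 50 lower, against 0 and 174 with spike-ins. In both scalings 0 of the 13 Y RNA loci lay below the median of all loci, with a distance between the medians of 3.13 (spike-ins) and 3.25 (TMM). DESeq2 with spike-in size factors called 1 of the 13 higher, Y_RNA.13-201 (log2 change 1.39 ± 0.60, adjusted p = 0.0261), which was the single locus called higher (0.357% of all loci) beside 224 called lower. With its own size factors DESeq2 called 13 of 13 higher, beside 20.7% of all loci called higher.

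**Figure D5:**
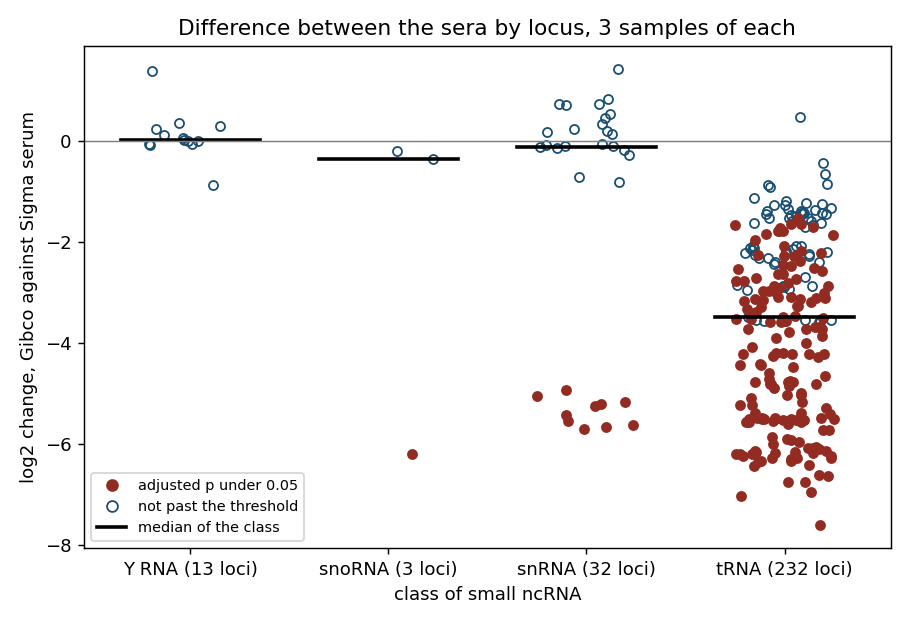
Log2 change of Gibco against Sigma serum for each of 280 loci by class, from edgeR on the spike-in scale (3 samples of each serum, filled red points with adjusted p under 0.05, black lines at the class medians). The 13 Y RNA loci have a median of 0.01 and none is called, whereas the median of 232 tRNA loci is -3.49, and under TMM scaling 12 of the 13 Y RNA loci are called higher.

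The Gibco to Sigma ratio at the first 8 loci was 0.668 to 1.25 in FBS, 1.06 to 1.66 in UC-dFBS and 0.657 to 1.47 in UF-dFBS. Y RNA in UF-dFBS was also set against the other classes of RNA, whose ratio within a sample does not depend on spike-ins. The log2 ratio to tRNA differed by 0.63 (exact two-sided permutation p = 0.786), to snRNA by -0.57 (exact p = 0.714) and to snoRNA by 0.42 (exact p = 0.5), each of them less than the spread between the UF-dFBS samples. Relative to miRNA, Y RNA was 19.1-fold higher in UF-dFBS (log2 difference 4.26, higher in 2 of 2 samples than in all others, exact p = 0.0714, adjusted over 4 classes 0.286). Neither p can pass the threshold for 2 against 6 samples when the smaller tail is doubled.

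StemPRO contained 17 Y RNA counts, which was 0.324% of its 5241 counts of small ncRNA other than miRNA (Wilson 95% interval 0.203 to 0.519) and 0.157 spike-in normalized counts, with no replicate. They fell on 8 loci, none of them among the 8 leading loci of the FBS-based media. Y_RNA.53-201 (chr12:128103881-128103992) had 7 counts, or 41.2% (Wilson 95% interval 21.6 to 64.0), and Y_RNA.17-201 (chr20:40328260-40328355) had 4, whereas these loci had 9 and 5 counts over all 8 FBS-based samples. The other 6 loci had 1 count each, and of these Y_RNA.229-201 was at 0 in all FBS-based samples. A count of 0 of 17 on the first 8 loci allows a share of up to 17.6%, compared with at least 84.1% in the FBS-based samples.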

How the data were processed

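Small ncRNA of EV isolates from 9 media samples was sequenced by the authors with QIAseq miRNA libraries. The deposited counts are reads per locus, trimmed with cutadapt 1.11, collapsed by unique molecular index and mapped with Bowtie2 2.2.2 to GRCh37 by the authors. The deposited normalized values are a spike-in scaled signal, for which the authors set counts against a zero-intercept line through the spike-ins. Checked over loci, a sample had 1 constant factor between both files (3.78 to 108 counts per unit). Spike-ins were miRNA-sized, and the error of their fit was not analysed here.

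Samples were grouped by title. Locus sums, shares and ratios were computed in python 3.11.15. Totals were tested with exact permutation tests on log2 values. The two-sided p of these tests was the smaller tail doubled. Loci were tested over the whole small ncRNA table with edgeR 4.0.16 (quasi-likelihood F-test, Benjamini-Hochberg adjustment over all loci tested, threshold 0.05), with library sizes from spike-ins and at least 10 counts in at least 2 samples (3 for the comparison of sera). Alternatives were DESeq2 1.42.0, TMM, no filter, identical loci counted once, leaving out each sample and the serum as replicate block. The fit with the medium as term was tested on simulated data with a single fixed spread and no difference between sera. That setting is unlike these samples, so that it does not cover the spread seen here. p-values measure the spread between these samples, which may be technical or come from the serum. Floors were 3 counts, and intervals cover counting error only.

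The pairing comes from the supplier in the labels and from the methods, since FBS, UC-dFBS and UF-dFBS shared sera. The difference between sample 1 and 2 of a medium correlated across 363 loci at 0.743 (FBS and UC-dFBS), 0.615 (FBS and UF-dFBS) and 0.576 (UC-dFBS and UF-dFBS), and at -0.461 to -0.561 with SBI-dFBS. For the 20 Y RNA loci it was 0.416, -0.156 and -0.179. SBI-dFBS has its own lots and StemPRO 1 sample, so neither entered the blocked fit.

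Named loci were the 10 with the highest mean, those that passed 1 unit in SBI-dFBS alone, those with most counts in StemPRO and, for each comparison, up to 5 called with the largest change. Others were picked once values were known. Members and lists were chosen with earlier results of these data known. Tests planned for RNY-named genes were not made, as there were none.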

Additional observations from a re-analysis of the deposited data

Results flagged for a closer look

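Of the 10 leading Y RNA loci, the ones examined here, there were 5 at which the ratio of UC-dFBS to FBS lay on opposite sides of 1 in the 2 sera. Each serum had 1 sample of each medium, so that the difference was not tested. The ratio of UC-dFBS to FBS was 0.786 in Sigma and 1.42 in Gibco for Y_RNA.273-201 (a log2 difference between the sera of 0.85), 0.626 and 1.05 for Y_RNA.321-201 (0.75), 0.731 and 1.34 for Y_RNA.341-201 (0.87), and 0.644 and 1.32 for Y_RNA.308-201 (1.04). These were 4 of the 5 loci of 93 to 96 bases among the first 8. The ratio was higher in Gibco than in Sigma at all of the first 8 loci and for the Y RNA total (0.788 against 0.580). The 4 loci are thus those at which this shared shift crossed 1. For Y_RNA.321-201 the Gibco ratio rests on 131 counts in UC-dFBS-2 and 136 in FBS-2, so that no rise is shown there. For Y_RNA.125-201 the ratio was 1.63 in Sigma and 0.243 in Gibco (-2.75), where the Gibco value rests on 2 counts in UC-dFBS-2.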

How the results depend on the processing

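The alternatives mattered most for calls of single loci. For UF-dFBS against FBS, 0 Y RNA loci were called with the medium as term, 12 with DESeq2 on spike-ins, 26 without a filter and 18 with the serum as replicate block (0 with the same 6 samples and no block, an alternative chosen after seeing the data). Of the 26, 14 were the loci picked for being at 0 in SBI-dFBS and UF-dFBS. Against the mean of the other media DESeq2 on spike-ins called 16 and the replicate block 18. The replicate block called 1 for UC-dFBS, and DESeq2 with its own size factors called 1 (Y_RNA.601-201) for SBI-dFBS. Between the sera, 12 were called higher with TMM, 1 with DESeq2 on spike-ins and 13 with its own size factors, against 0. In UF-dFBS against FBS the log2 change turned positive with TMM at 6 of 20 Y RNA loci and with DESeq2's own size factors at 7 of 20. Among the 10 leading loci, these were with TMM Y_RNA.384-201 (0.27), Y_RNA.273-201 (0.80) and Y_RNA.308-201 (0.76), and with DESeq2's own size factors the same loci (0.39, 0.94 and 0.91) and Y_RNA.523-201 (0.12). The cause was not tested.

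The Y RNA total of UF-dFBS kept its direction except as a percentage of all counts (0.70 over both sera). That percentage was lower than in FBS of the same serum in Sigma and higher in Gibco. The ratio to tRNA turned with the replicate block (-0.032). Leaving out 1 sample at a time gave -1.78 to 3.05 for the ratio to tRNA, -2.85 to 1.72 for snRNA and -0.40 to 1.24 for snoRNA, where a UF-dFBS sample decided the sign. The difference between the sera in Y RNA total turned with raw counts (-0.17) and ranged from -1.10 to 1.30 with 1 sample left out, turning without FBS-2, UC-dFBS-2 or UF-dFBS-1, which leaves the sera with unequal media. With both samples of a medium left out, an alternative chosen after seeing the data, it ranged from -0.20 to 0.19, turning without UC-dFBS, and within the media it was -0.026, 0.42 and -0.37 for FBS, UC-dFBS and UF-dFBS. Loci above a threshold of 0.1 numbered 160 for FBS, 121 for SBI-dFBS, 105 for UC-dFBS and 17 for UF-dFBS, and above 5 they numbered 8, 11, 8 and 2. At 0.1 a single count passed in FBS, SBI-dFBS and UC-dFBS, so that their numbers equal those above 0 counts. UF-dFBS, with 55.2 and 24.0 counts per unit, needed several counts, and 76 of its loci had any count. The drop to 17 therefore depends on the unequal counts per unit. With 1 FBS sample left out, the number for FBS above 1 unit was 21 (without FBS-1) or 38. The replicate block changed no other call. Y RNA loci below the 12 most abundant rest on 100 or fewer counts, so that their changes are poorly resolved.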
